A study of Homo sapiens with 10 samples.

Results

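The APOBEC3 genes APOBEC3A, APOBEC3B, APOBEC3C, APOBEC3D, APOBEC3F, APOBEC3G and APOBEC3H were followed in irradiated renal proximal tubular epithelial cells (RPTECs). All 7 were found by Ensembl identifier among the 61587 genes of the count table, of which 19006 reached 200 counts over the 10 samples and were tested. APOBEC3B, APOBEC3C, APOBEC3F and APOBEC3G were among those 19006, while APOBEC3A, APOBEC3D and APOBEC3H stayed under 200 counts. RPTEC/TERT1 is a human proximal tubular line immortalised with telomerase. It was given 10 Gy of caesium-137 gamma irradiation (5 samples) or was mock-irradiated (5 samples), and polyA RNA was taken on day 7. Samples numbered 1 to 5 in both groups are compared in pairs, and nothing in the labels says whether the numbers stand for separate cultures, so p-values measure the spread between these samples. Replicates 4 and 5 were closer to each other than any other pair, at 15.1 against 57.1 to 213.4 among controls and 8.50 against 40.4 to 88.5 among irradiated samples by the chi-square of their counts divided by the number of genes. They still differed by more than counting noise and were kept as separate samples. The study used irradiation to induce senescence in RPTECs.

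APOBEC3 enzymes deaminate cytosine to uracil in single-stranded DNA, and are best known as innate defences that mutate the DNA copies of retroviruses and restrain retrotransposons. The genes arose by duplication and lie side by side on chromosome 22. APOBEC3A and APOBEC3B can also reach the nuclear genome, where their footprint of mutated cytosines is common in cancers, while APOBEC3F and APOBEC3G act mainly in the cytoplasm and are the classic targets of the HIV protein Vif. Several members are induced by interferon, and APOBEC3B is known to be held down in resting cells by the DREAM complex and to respond to NF-κB.

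The members span 151.3 kb of GRCh38, chr22:38952741-39104067, all on the plus strand. Each enzyme carries a zinc-binding deaminase motif, with a histidine, a glutamate and a pair of cysteines around the active site. The motif was found once in the coding sequence of APOBEC3A, APOBEC3C and APOBEC3H and at 2 places in APOBEC3B, APOBEC3D, APOBEC3F and APOBEC3G. Reference coding DNA of the motif is shown because near-identity between members bears on which reads can be assigned to which gene. Each stretch lies within a single coding exon, and capitals mark the codons of the histidine, the glutamate and both cysteines.
APOBEC3B, first motif, chr22:38985833-38985937: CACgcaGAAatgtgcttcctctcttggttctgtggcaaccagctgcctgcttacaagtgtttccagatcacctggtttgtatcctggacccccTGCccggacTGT
APOBEC3B, second motif, chr22:38991365-38991475: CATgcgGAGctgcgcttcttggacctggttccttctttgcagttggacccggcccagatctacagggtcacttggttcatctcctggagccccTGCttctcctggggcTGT
APOBEC3C, chr22:39017787-39017891: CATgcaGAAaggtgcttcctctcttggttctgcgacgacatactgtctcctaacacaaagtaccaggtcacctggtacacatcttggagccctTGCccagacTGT
APOBEC3F, second motif, chr22:39052095-39052199: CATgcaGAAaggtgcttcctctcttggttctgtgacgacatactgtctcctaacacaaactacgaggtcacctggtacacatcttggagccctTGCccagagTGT
APOBEC3H, chr22:39101246-39101350: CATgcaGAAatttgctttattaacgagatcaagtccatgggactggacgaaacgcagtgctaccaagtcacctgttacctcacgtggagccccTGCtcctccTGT

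The first motif of APOBEC3B was identical over its 105 bases to the first motif of APOBEC3F, and the second over its 111 bases to the motif of APOBEC3A. The motif of APOBEC3C shared 96.2% of bases with the second motif of APOBEC3F, which in turn was identical to that of APOBEC3D. Among the motifs shown, APOBEC3H was at 56.2% to 60.4% identity to the others and the second APOBEC3B motif at 58.9% to 59.5%. The second motif of APOBEC3G, not shown, was at 77.5% to the second APOBEC3B motif and at 64.15% to that of APOBEC3H. Of the 150-base windows in the exons of APOBEC3B, 27.6% occur elsewhere in the genome, against 0% for APOBEC3C and APOBEC3H, 1.16% for APOBEC3F and 2.01% for APOBEC3G. Windows were matched exactly and within 1 exon, so exons under 150 bases were left out, including 3 of 6 in APOBEC3H. Reads that map to several places are not counted by STAR, so the level of APOBEC3B can be too low in all samples. The study sequenced paired reads, which single windows do not represent, so the share of reads lost was not measured. APOBEC3B also has 12.9% of its exon length under the antisense gene APOBEC3B-AS1, which held 1 count in all samples.

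Total counts on genes ranged from 78081911 to 131555873 in controls and from 66269311 to 101594948 in irradiated samples. Levels are given below in CPM, read counts scaled to the size of the library by the TMM method, as mean ± SD over n = 5 samples a group, and fold changes (irradiated over control) are given with their standard error (SE). CDKN1A, which encodes the cell cycle inhibitor p21, stood at 101.9 ± 59.3 CPM without irradiation and at 698.5 ± 69.0 CPM after it. Of the renal epithelial markers, PAX8 was at 533.0 ± 70.3 CPM in controls and KRT8 at 1010 ± 134, and the brush border genes ANPEP, GGT1 and CUBN were present at 247.8, 10.02 and 4.37 CPM. Of the 14 markers, HNF4A (12 counts in all), LRP2 (17 counts) and SLC34A1 (86 counts) were under the count limit. Leukocytes express several members strongly. The 12 leukocyte markers summed to 0.865 to 1.31 CPM in controls and 2.11 to 2.92 CPM in irradiated samples, with the pan-leukocyte gene PTPRC at 0.295 ± 0.102 and 0.353 ± 0.121 CPM, and the lymphocyte genes CD3E and MS4A1 at 0 in all controls and at 3 counts each over the irradiated samples. Most of the rise in that sum came from ITGAM, at 0.0436 CPM in controls and 1.24 CPM in irradiated samples. The part of leukocyte transcripts in the changes of APOBEC3 genes was not tested.

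**Figure D1:**
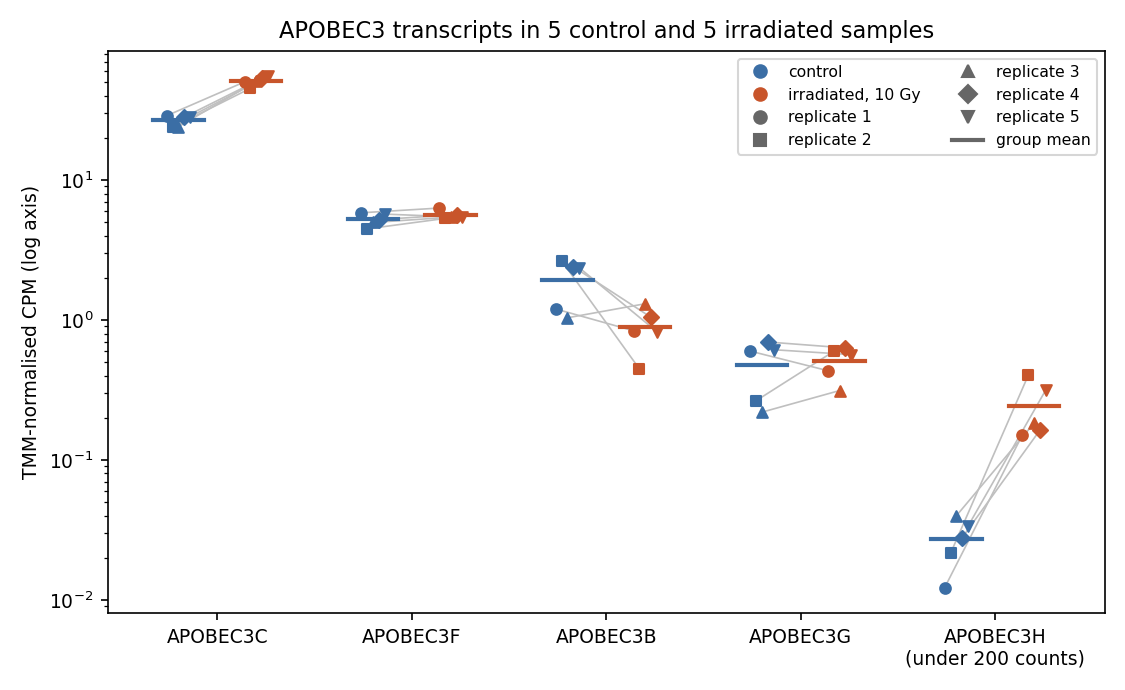
TMM-normalised CPM of 5 APOBEC3 genes (log axis) in control (blue) and irradiated (orange) samples, with marker shapes for replicates 1 to 5, grey lines joining samples of the same number and bars at the group means. APOBEC3C and APOBEC3H were higher in all 5 irradiated samples than in any control, whereas APOBEC3B fell in 4 of 5 pairs and APOBEC3F and APOBEC3G overlapped. Groups did not overlap for 26.7% of the genes tested, a set without APOBEC3H.

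APOBEC3C was the member with the clearest change, and it rose 1.91-fold after irradiation. Of the 4 members tested it was the only 1 called higher, APOBEC3B was the only 1 called lower, and APOBEC3F and APOBEC3G did not pass the test. Against this, 23.9% of all genes tested were called higher and 22.7% lower (46.6% in either direction) at an adjusted p-value under 0.05 from edgeR's quasi-likelihood test, so 2 calls among 4 members is close to the share over all genes. Without the replicate block 36.9% of genes were called, 19.2% higher and 17.7% lower, and the same 2 members were called. APOBEC3H, under the count limit, was also higher in every irradiated sample than in any control. Such a lack of overlap, in either direction, held for 26.7% of the genes tested, which leave out APOBEC3H.

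APOBEC3C is a small enzyme with a single deaminase domain that is active against some lentiviruses and retroelements. Its expression in control replicates 1 to 5 was 28.8, 23.8, 24.1, 28.2 and 28.4 CPM. In irradiated replicates 1 to 5 it was 50.3, 45.3, 50.7, 53.3 and 55.1 CPM. Every irradiated sample lay above every control, which held for 26.7% of the genes tested in either direction. This corresponds to a log2 fold change of 0.94 (SE 0.05, edgeR adjusted p = 2.01e-05 with replicate number as a block), and the rise within pairs ran from 1.74-fold in replicate 1 to 2.11-fold in replicate 3. In a bulk sample a change in the share of expressing cells and a change of RNA per cell cannot be told apart.

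APOBEC3B, the mostly nuclear member, was at 1.199, 2.65, 1.04, 2.40 and 2.37 CPM in control replicates 1 to 5. Irradiated replicates 1 to 5 were at 0.838, 0.448, 1.31, 1.05 and 0.825 CPM. Controls 2, 4 and 5 were high, controls 1 and 3 were within the range of the irradiated samples, and the groups overlapped. The log2 fold change came to -1.06 (SE 0.36, edgeR adjusted p = 0.0416), with a fall to 0.169, 0.435 and 0.348 of the control level in pairs 2, 4 and 5, to 0.699 in pair 1 and a level 1.26-fold higher in pair 3. The call depended on single replicates. It was lost without replicate 1 (adjusted p = 0.0695), 2 (0.0829), 4 (0.113) or 5 (0.136) and ran from 0.00135 to 0.136 across the 12 alternatives tried.

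The level of APOBEC3B moved with genes of proliferation. The mean of 10 proliferation genes, among them MKI67, TOP2A and CDK1, was 4.34, 5.61, 4.33, 5.72 and 5.64 log2 CPM in control replicates 1 to 5, so that controls 1 and 3 were low for both. In irradiated replicates 1 to 5 this mean was 3.59, 3.11, 3.77, 3.72 and 3.45 log2 CPM, lowest in replicate 2, where APOBEC3B was lowest too. The differences within pairs 1 to 5 were -0.75, -2.50, -0.55, -1.99 and -2.19 for the proliferation mean and -0.51, -2.51, 0.33, -1.19 and -1.50 for APOBEC3B on the same log2 scale. The part of proliferation in the change of APOBEC3B was not tested.

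**Figure D2:**
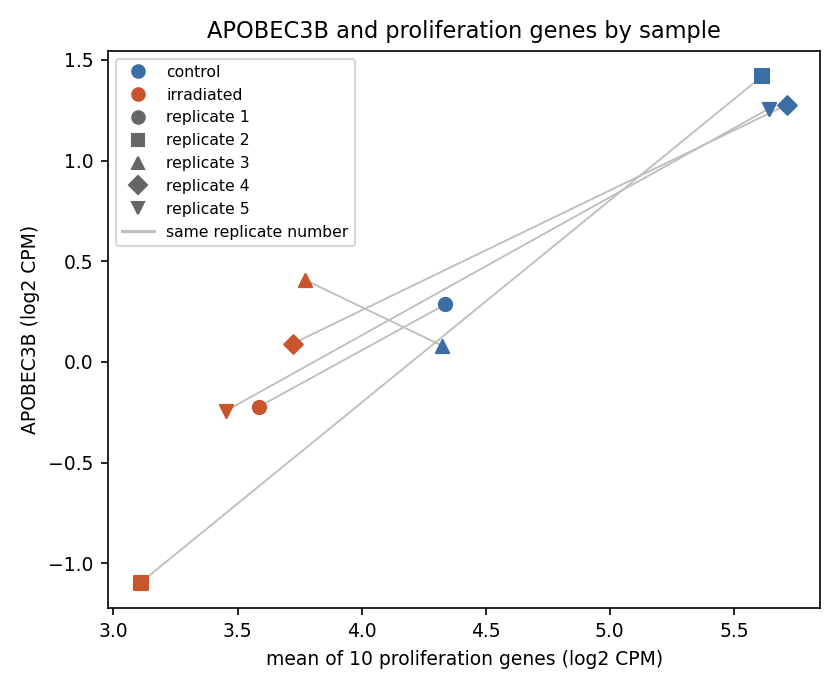
APOBEC3B (log2 CPM, vertical) against the mean of 10 proliferation genes (log2 CPM, horizontal) in control (blue) and irradiated (orange) samples, with grey lines joining samples of the same replicate number. Controls 2, 4 and 5 sit apart at the upper right, at 5.61 to 5.72 on the horizontal axis, while controls 1 and 3 sit at 4.33 to 4.34, next to the irradiated samples.

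APOBEC3F and APOBEC3G, both with a pair of deaminase domains and both potent against HIV lacking Vif, did not pass the test. APOBEC3F was at 5.83, 4.48, 4.97, 5.22 and 5.71 CPM in control replicates 1 to 5 and at 6.31, 5.32, 5.43, 5.66 and 5.43 CPM in irradiated ones. These ranges overlapped, with a log2 fold change of 0.11 (SE 0.08, adjusted p = 0.291 in edgeR) and a higher level in 4 of 5 pairs. APOBEC3G was at 0.599, 0.265, 0.219, 0.696 and 0.613 CPM in control replicates 1 to 5 and at 0.434, 0.597, 0.313, 0.631 and 0.565 in irradiated ones. It had 22 to 75 counts per sample, and its pairs ran from 0.724-fold to 2.26-fold, with a log2 fold change of 0.14 (SE 0.24, adjusted p = 0.656 in edgeR) and 2 of 5 pairs higher. Without replicate 2 its fold change was below 0, at -0.09 on the log2 scale.

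APOBEC3H is a single-domain enzyme that differs from the others in the class of its zinc motif. It had 1, 3, 4, 3 and 4 counts in control replicates 1 to 5 and 15, 27, 17, 15 and 28 counts in irradiated ones. Every irradiated sample was above every control, in CPM at 0.151 to 0.403 against 0.0122 to 0.0399. Groups did not overlap for 26.7% of the genes with at least 200 counts, a set that leaves out APOBEC3H. The share among genes with fewer counts was not computed. The 102 irradiated against 15 control counts give an 8.50-fold higher level, with a 95% exact binomial interval of 4.92 to 15.7 that covers counting error only. When every gene with at least 1 count was kept (21.5% of 44263 genes called, 10.2% higher and 11.2% lower), the edgeR estimate for APOBEC3H was 3.08 on the log2 scale (SE 0.37, adjusted p = 8.40e-07), and it ran from 2.74 to 3.34 over 9 variants of that fit, chosen after the data were seen, with adjusted p-values up to 4.94e-05.

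APOBEC3A and APOBEC3D gave no usable level. APOBEC3A, an interferon-induced enzyme of myeloid cells and keratinocytes, had 5 counts in all (2 in controls, 3 in irradiated samples) and none in 6 libraries, where 0 counts allow up to 0.0215 to 0.0448 CPM depending on the library. APOBEC3D had 7 counts, 1 in controls and 6 in irradiated samples. For APOBEC3D this says little about expression, since 83.2% of its exon length is also annotated to ENSG00000284554 on the same strand, which itself held 0 counts. Reads on exons shared by 2 genes are left out of the counts, and of 312 protein-coding genes lying wholly under same-strand exons of other genes, 97.8% had 0 counts.

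Per kilobase of merged exons, APOBEC3C far exceeded the other members. Its level was 10.1 ± 0.9 CPM per kb in control and 19.3 ± 1.4 in irradiated samples, and its mean over all samples stood at percentile 85.7 of 18969 tested genes. In controls APOBEC3B at 1.02 ± 0.40 and APOBEC3F at 1.01 ± 0.11 CPM per kb did not differ beyond their spread, but by coding length they were at 1.31 and 4.69, with APOBEC3B above APOBEC3F in 0 of 5 controls. They were followed by APOBEC3G at 0.0890 ± 0.0409 and APOBEC3H at 0.0216 ± 0.0086. After irradiation APOBEC3F was at 1.08 ± 0.08, APOBEC3B at 0.471 ± 0.167, APOBEC3H at 0.195 ± 0.089 and APOBEC3G at 0.0946 ± 0.0246 CPM per kb. APOBEC3H exceeded APOBEC3G in 0 of 5 controls and 5 of 5 irradiated samples. With the longest transcript or the coding length as the length, it did so in 3 of 5 irradiated samples. By coding length the order of the irradiated means was reversed, with APOBEC3G at 0.441 and APOBEC3H at 0.406 CPM per kb.

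APOBEC3C held 82.5% ± 2.6 of the summed per-length level of the family in controls and 91.2% ± 0.4 in irradiated samples, with ranges of 79.5% to 85.3% and 90.8% to 91.9% that did not overlap. The share of APOBEC3B was 8.31% ± 3.20 and 2.21% ± 0.74. The summed level was 10.7 to 13.2 CPM per kb in controls and 18.8 to 22.7 in irradiated samples. Reads of APOBEC3D that were not counted are missing from these sums. Reads of APOBEC3B that map to several places or lie under APOBEC3B-AS1 can be missing too, so its share can be too low.

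**Figure D3:**
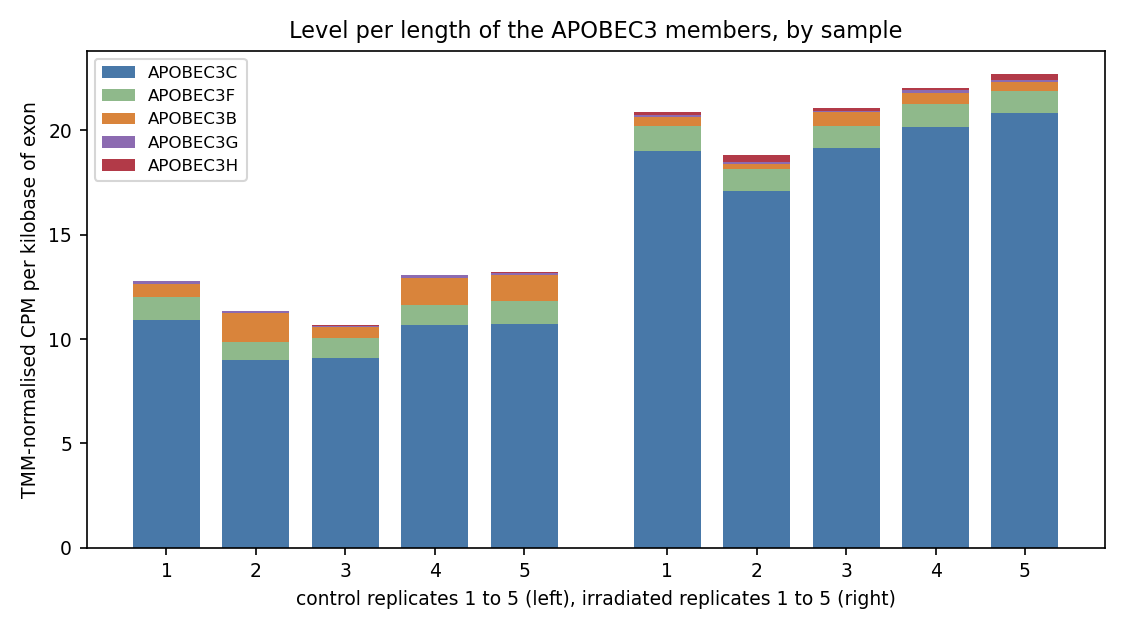
Level of 5 APOBEC3 genes, in TMM-normalised CPM per kilobase of merged exons, stacked for control replicates 1 to 5 (left) and irradiated replicates 1 to 5 (right). APOBEC3C makes up most of each bar, and all 5 irradiated bars, at 18.8 to 22.7, are taller than the control bars, at 10.7 to 13.2.

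Of the 6 ratios between the 4 tested members, 2 shifted past the threshold in a test that ignored the pairs. Ratios of counts of 2 members within a sample need no scaling. All 6 were compared by a two-sided exact permutation test over the 10 samples. The APOBEC3B/APOBEC3C ratio shifted by -2.03 on the log2 scale and was lower in 5 of 5 pairs (exact permutation p = 0.00794, the smallest possible, adjusted p = 0.0238). The APOBEC3C/APOBEC3F ratio shifted by 0.83 and was higher in 5 of 5 pairs (exact permutation p = 0.00794, adjusted p = 0.0238), from 2.35 ± 0.07 in control to 3.18 ± 0.14 in irradiated samples. The other 4 ratios did not pass after adjustment, with values of -1.201 for APOBEC3B/APOBEC3F (adjusted exact permutation p = 0.0635), -1.29 for APOBEC3B/APOBEC3G (0.0714), 0.74 for APOBEC3C/APOBEC3G (0.105) and -0.09 for APOBEC3F/APOBEC3G (0.778). Sign flips within the replicate block of 5 pairs, which cannot reach a p under 0.05, left the APOBEC3B/APOBEC3C and APOBEC3C/APOBEC3F ratios at an adjusted p of 0.125.

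Genes beside the cluster moved in both directions and less than APOBEC3C. Among the 5 tested genes nearest on each side, 3 rose, 4 fell and 3 did not pass the test. Over all genes tested, 23.9% were called higher and 22.7% lower. CBX6, a Polycomb chromobox protein 80.5 kb before the cluster, rose by 0.24 on the log2 scale (SE 0.05, adjusted p = 0.0058 in edgeR), and NPTXR, a neuronal pentraxin receptor, by 0.51 (0.07, 0.000724). CBX7, the related chromobox gene 16.1 kb after APOBEC3H, stood at -0.11 on the log2 scale (SE 0.14, adjusted p = 0.555 in edgeR). PDGFB, a growth factor gene, rose by 0.47 (0.14, 0.0282), and SUN2 at -0.23 and DNAL4 at -0.32 fell (adjusted p of 0.00342 and 0.0108). The long non-coding RNA genes ENSG00000272669 and ENSG00000279833 fell, at -0.43 and -0.53 (0.0433 and 0.0252). Of 7 alternatives, the call of ENSG00000272669 was lost in 6, that of ENSG00000279833 in 3, that of PDGFB in 3 and that of DNAL4 in 1. ENSG00000284633 at -0.14 and the ribosomal protein gene RPL3 at -0.14 did not pass.

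**Figure D4:**
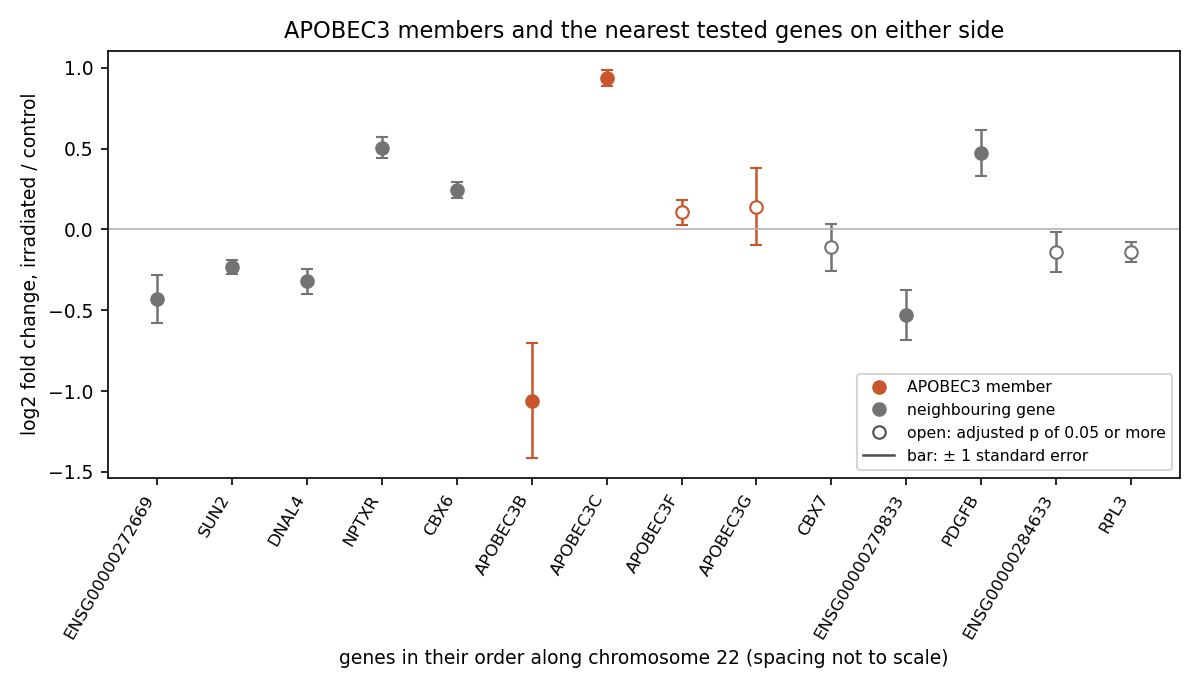
Log2 fold change (irradiated over control, edgeR, bars of 1 standard error) of the 4 tested APOBEC3 members in orange and the 5 nearest tested genes on each side in grey, in chromosomal order, with open circles for adjusted p-values of 0.05 or more. APOBEC3B at -1.06 and APOBEC3C at 0.94 lie next to each other and point in opposite directions, while the neighbouring genes lie between -0.53 and 0.51.

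The 2 genes whose profile over the 10 samples was closest to each tested member were found by the root-mean-square difference of log2 CPM centred on each gene's mean, and the choice by likeness carries no test. For APOBEC3B they were MELK, a kinase expressed in dividing cells (difference 0.215, from 17.0 to 7.5 CPM), and DMC1, a recombinase of meiosis (0.225, from 0.495 to 0.174 CPM). For APOBEC3C they were the protocadherin PCDHB9 (0.0690) and AJAP1, a protein of adherens junctions (0.0816, from 71.9 to 138 CPM). SPR, an enzyme of tetrahydrobiopterin synthesis, and ANKRD37 were closest to APOBEC3F (0.0572 and 0.0690). For APOBEC3G they were ENSG00000261471 (0.209) and the phosphate transporter gene SLC17A4 (0.264).

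Of the relatives outside the cluster, APOBEC2, a muscle-expressed family member, did not pass (log2 fold change -0.19, SE 0.28, adjusted p = 0.604 in edgeR). APOBEC4 had 14 counts in all, and APOBEC1, the editing enzyme of apolipoprotein B mRNA, had 0.

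Genes that deal with uracil in DNA changed by small amounts and in both directions. Of 13, 2 rose, 5 fell and 6 did not pass, where 23.9% of all genes tested were called higher and 22.7% lower. Their median log2 fold change was -0.13, against -0.01 over all genes tested. DUT, the dUTPase that keeps uracil out of new DNA, fell from 49.5 ± 8.7 to 33.7 ± 1.3 CPM, and the repair ligase LIG3 and its partner XRCC1 fell, with log2 fold changes of -0.40 and -0.28 (adjusted p of 0.000592 and 0.00252 in edgeR). The gap-filling polymerase POLB rose from 13.96 ± 1.07 to 19.3 ± 0.97 CPM. UNG, the main uracil DNA glycosylase, was at 32.5 ± 5.0 and 29.2 ± 2.1 CPM (log2 fold change -0.15, SE 0.10, adjusted p = 0.264), and REV1, MBD4 and TDG were the other genes called, TDG being higher. The number that fell was 3 without replicate 1 or 4 and 8 without replicates 1 and 3, compared with 5.

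Other antiviral restriction factors split by gene. Of 12 listed, 11 were tested, 3 rose, 5 fell and 3 did not pass (median log2 fold change 0.01). Calls over all genes tested were 23.9% higher and 22.7% lower. TRIM22, an interferon-inducible repressor of viral transcription, rose from 70.4 ± 2.0 to 166.3 ± 22.4 CPM, and SERINC3 and ZC3HAV1 also rose. BST2, which tethers budding virus, and the helicase gene MOV10 fell. IFITM1, IFITM2 and IFITM3, membrane proteins that block viral entry, fell, with log2 fold changes of -1.28, -1.22 and -1.19 (adjusted p of 0.00371, 0.000389 and 0.000441 in edgeR), and the near-identity of these paralogs can leave reads unassigned. SAMHD1, a dNTPase that starves reverse transcription, was at 34.3 ± 3.2 and 35.5 ± 2.9 CPM (log2 fold change 0.05, adjusted p = 0.424). Of the 6 cellular partners of Vif and their ligase genes, RNF7 and ELOC rose by 0.19 each, CBFB at -0.23 and ARIH2 at -0.17 on the log2 scale fell, and CUL5 and ELOB did not pass. RNF7 and ELOC were no longer called with library size as the only scaling.

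Genes of the pathways known to act on APOBEC3 transcription were described in the same fit. In it 23.9% of all genes tested were called higher and 22.7% lower. Of the 5 NF-κB subunits 4 rose, led by RELB, from 12.8 ± 3.5 to 55.8 ± 9.8 CPM, and NFKB2, from 49.95 ± 7.13 to 153.2 ± 19.5, with a median log2 fold change of 0.73. NFKB1 and RELA rose by 0.73 and 0.21 on the log2 scale, and REL did not pass. Interferon genes were mixed. Of 14 tested, 5 rose, 2 fell and 7 did not pass (median log2 fold change 0.15), with OAS1 up from 4.45 ± 0.48 to 12.1 ± 2.5 CPM, ISG15 from 9.87 ± 0.94 to 19.6 ± 3.8 CPM and MX1 from 11.15 ± 2.36 to 16.8 ± 4.1, while IFIT1 and IFIT3 fell, with log2 fold changes of -0.53 and -0.42. IFNB1 had 7 counts in all samples and IFNL1 had 0. The number of interferon genes that rose was 8 without replicate 3.

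Of 15 genes of the RB and DREAM complexes with their E2F factors, 0 rose, 8 fell and 7 did not pass (median log2 fold change -0.30). The share called lower over all genes tested was 22.7%. FOXM1 fell from 23.8 ± 11.1 to 4.47 ± 0.88 CPM and MYBL2 from 39.5 ± 21.2 to 7.21 ± 1.75 CPM. E2F2 and E2F1 fell with log2 fold changes of -1.90 and -1.25. RBL2, the pocket protein of DREAM in resting cells, was at 44.9 ± 2.0 and 44.2 ± 1.8 CPM (log2 fold change -0.02, adjusted p = 0.741 in edgeR). Of the 10 proliferation genes 9 fell, with a median log2 fold change of -1.95, and MKI67 dropped from 161.6 ± 85.4 to 24.0 ± 5.3 CPM, with CDK1 at -2.10, BUB1 at -2.06 and CCNA2 at -2.06 on the log2 scale, while PCNA did not pass. All 7 APOBEC3 genes and these lists were chosen with earlier results on these samples known, so their counts are a description.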

How the data were processed

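Raw read counts per gene were deposited by the authors for the 10 samples, unfiltered, after Trim-Galore and alignment to GRCh38 by STAR, whose gene counting leaves out reads with several positions or genes. The GENCODE release and strand setting are not given in the sources used here, and the labels and the study's methods name different library kits. All 17 protein-coding genes wholly under opposite-strand exons had 0 counts, against 9.29% of 10506 without overlap, so the counts were treated as unstranded. The cell line label runs from RPTEC/TERT1 to RPTEC/TERT10 across the samples, whereas the series text names RPTEC/TERT1.

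The test was edgeR 4.0.16 under R 4.3.3 (TMM, glmQLFit, glmQLFTest) on genes with at least 200 counts, with replicate number as a block, as in the study's own model (which used DESeq2), and Benjamini-Hochberg adjustment at 0.05 over 19006 genes. Standard errors are the log2 fold change over the square root of F. Deviations from group means correlated at 0.22 to 0.51 for same-numbered samples and at -0.35 to 0.32 for others. Alternatives were DESeq2 1.42.0, other scalings and filters, no block and replicates left out. The edgeR and DESeq2 fits were tested on simulated data, where the share of false calls exceeded the threshold for the block fit and, further, for DESeq2. In the simulated data few genes were changed and replicate number had no effect. How far these shares hold for the fits here is therefore not known. Of the table's identifiers, 61369 matched GENCODE v44, which gave coordinates, exon lengths and overlaps, and hg38 gave the sequences. Depth ran from 66269311 to 131555873 counts, so precision is set by the spread between samples except for low-count members. All members, and of each list up to 4 called genes with the largest change, are named, apart from some genes not reported here, and UNG, TDG, MBD4, REV1, SAMHD1, IFIT1, IFIT3, SERINC3, ZC3HAV1, BST2, MOV10, RBL2, ANPEP, GGT1, CUBN, ITGAM, CD14, LYZ, CSF1R, CDH6, AQP1 and the genes listed as not called were added after their values were seen. Members and lists were chosen with earlier results of these data known. Figures were drawn with matplotlib 3.10.9.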

Additional observations from a re-analysis of the deposited data

Results flagged for a closer look

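Of 44 groups of 5 values (the 4 tested members, APOBEC3H, the neighbouring genes, the member ratios and the proliferation mean), Dixon's criterion singled out 1, where chance gives about 2.2. PDGFB, 119.3 kb after the cluster, was at 37.6 CPM in control replicate 3, against 61.1 to 63.0 CPM in the other controls. None of the APOBEC3 members was singled out.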

How the results depend on the processing

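APOBEC3C stayed called higher under all 12 alternatives (log2 fold change 0.86 to 0.97), and APOBEC3F and APOBEC3G stayed uncalled (0.03 to 0.16 and -0.09 to 0.30). APOBEC3B ran from -1.40 to -0.73 with 1 replicate left out and was not called without replicate 1, 2, 4 or 5, which leaves 0 members called lower in those fits (range 0 to 1). With at least 1 count, or with filterByExpr, 2 members were called higher, the added member being APOBEC3H, which passes filterByExpr only through the irradiated samples, so that its call there adds no support. Without the replicate block the log2 fold changes were -1.11 for APOBEC3B (adjusted p = 0.0166 in edgeR) and 0.93 for APOBEC3C, and the block changed no other member's call. It decided ENSG00000272669, at -0.45 without it (adjusted p = 0.0922) and -0.43 in DESeq2 (0.117). With 1 replicate left out, ENSG00000272669 ran from -0.52 to -0.32, ENSG00000279833 from -0.61 to -0.40, DNAL4 from -0.40 to -0.27, PDGFB from 0.32 to 0.61 and RPL3 from -0.18 to -0.11, each on both sides of the threshold. Uracil genes that fell numbered 3 to 5 with 1 replicate left out and 8 without replicates 1 and 3. Interferon genes numbered 5 to 8 higher and 1 to 3 lower with 1 left out. Vif partner genes that rose numbered 0 with library size only or at least 1 count, 1 without replicates 1 and 3, and 1 to 2 with 1 left out. With library size only, 38.0% of called genes rose, against 51.4%. The shift of APOBEC3B/APOBEC3C ran from -2.35 to -1.67 and that of APOBEC3C/APOBEC3F from 0.78 to 0.87 with 1 replicate left out. Both missed the threshold without replicate 1, 2, 4 or 5 (adjusted exact permutation p = 0.0857), although each had the smallest p that 4 against 4 samples allow. Without replicate 3, again with 4 against 4 samples, both passed it (adjusted exact permutation p = 0.0429). Under sign flips they were -2.03 and 0.83, not past it. APOBEC3B/APOBEC3F and APOBEC3B/APOBEC3G passed without replicate 3, at -1.55 and -1.56, over ranges of -1.55 to -0.80 and -1.60 to -0.67. The APOBEC3C share was 87.9% and 93.2% by coding length in control and irradiated samples, and 89.9% by longest transcript in irradiated ones. The causes were not tested. Depth limits APOBEC3A and APOBEC3H.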

Other observations

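Some marker genes used to check the cells changed. ITGAM, an integrin subunit best known from myeloid cells, rose from 0.0436 ± 0.0241 to 1.24 ± 0.37 CPM (mean ± SD over 5 samples), by 4.71 on the log2 scale (SE 0.31, edgeR adjusted p = 3.91e-05), in 5 of 5 pairs. CD14 rose from 0.268 ± 0.061 to 0.570 ± 0.109 CPM, while the myeloid gene LYZ had 67 counts in all and CSF1R 136. CDH6, a cadherin of the proximal tubule, rose from 37.7 ± 9.3 to 246.2 ± 59.7 CPM, and the water channel AQP1 fell from 1.82 ± 0.27 to 1.19 ± 0.16.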
